A study of Mus musculus with 7 samples.

Results

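The collagen genes of the mouse lung were followed in Scgb3a2 knockout and wild type lungs, as the entries of the deposited count table whose symbol is Col, a number, the letter a and a second number. The rule took 43 of the 28828 entries, made up of 11 fibrillar collagens, 6 type IV collagens, 3 anchoring fibril and multiplexin collagens, 7 collagens of the type VI group, 8 fibril-associated (FACIT) collagens, 3 short-chain network collagens and 5 transmembrane or other collagens, Col26a1 included. Total RNA of C57BL/6 lung was sequenced in 3 libraries of Scgb3a2 knockout mice (KO3, KO4 and KO5) and in 4 libraries of wild type mice (WT2, WT3, WT4 and WT6). Values given for the libraries follow this order. Scgb3a2 is a secretoglobin, a small protein secreted by airway club cells, and an antifibrotic role has been reported for it, which is the question behind a look at the collagens. The labels give no treatment, age, sex or litter, and neither the allele nor the cells in which the gene was removed. Whether a library stands for a single mouse is not stated. The spread between libraries, against which the tests set the difference between genotypes, may therefore be technical.

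Collagens are extracellular proteins in which 3 chains wind into a triple helix. Fibrillar collagens of types I and III bear the tension in vessel walls, airways and interstitium, and type V collagen starts and limits their fibrils. Type IV collagen forms the sheet of basement membranes, which in the alveolus lies between the epithelium and the capillary. Type VI collagen builds fine beaded filaments that link basement membranes with the fibrils around them. In lung fibrosis, fibroblasts and myofibroblasts deposit fibrillar collagen in excess.

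The targeted gene was read first, as a check of the labels. Scgb3a2 had 19, 19 and 37 counts in the knockout libraries, against 4204, 4170, 2636 and 4165 counts in the wild type libraries, and averaged 1.72 ± 0.83 CPM (counts scaled to a common library size of 1e+06) in knockout and 252 ± 41.3 CPM in wild type lungs (SD, n = 3 and 4). It fell by 7.20 ± 0.27 on the log2 scale (SE, edgeR's quasi-likelihood test, Benjamini-Hochberg adjusted p = 8.06e-07), lower in 3 of 3 knockout libraries. Library totals were 13071262 to 16480006 counts. The lung markers Sftpc, a surfactant protein, and Scgb1a1, the major club cell secretoglobin, reached 5897 to 8559 and 6768 to 14262 CPM in the knockout libraries, against 6836 to 8771 and 8380 to 14581 CPM in the wild type libraries. All 7 libraries held the Y-linked transcript Ddx3y (1581 to 2080 counts). Libraries KO5 and WT6 stood apart from the other 5 libraries and deviated together from the means of their genotypes (r = 0.64 across genes, which are not independent replicates), so values with and without them are given where they matter. Those 5 libraries were not alike either. The chi-square per degree of freedom between counts of 2 libraries was 13.2 to 18.1 for WT2 with KO3, KO4, WT3 or WT4. Among KO3, KO4, WT3 and WT4 it was 4.30 to 7.69.

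No collagen gene passed the test between knockout and wild type lungs. Of the 43 collagens, 39 passed the filter on low counts, and 0 of these 39 were called at an adjusted p under 0.05 in edgeR's quasi-likelihood test, against 7 of all 19832 genes tested (0.0353%; 0.0252% higher and 0.0101% lower in knockout lungs). The lowest adjusted p of a collagen was 0.9998. DESeq2 also called 0 collagens, against 47 of 19825 genes (0.237%), with 3 collagens at an unadjusted p under 0.05. In edgeR, 4 of the 39 collagens (10.3%) had an unadjusted p under 0.05, namely Col28a1, Col8a1 and Col13a1 with lower values and Col6a4 with higher values in knockout lungs. Over all genes the share was 2.87%, made up of 1.05% lower and 1.82% higher. The count of 4 ranged from 1 to 7 under the alternatives: it was 1 without KO4 or without WT2, 2 without WT4 or without WT6, 3 without both KO5 and WT6, 5 without KO5 or without WT3, and 7 with a block on the replicate number. That block in effect compares KO3 and KO4 with WT3 and WT4 alone, and leaves little spread to test against. The libraries of the genotypes did not overlap for 3 collagens, all lower in knockout lungs (Col28a1, Col8a1 and Col25a1), against 1.61% of all genes lower and 2.11% higher. In bulk tissue, fewer cells of a type and less RNA per cell cannot be told apart.

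Most collagens had a small negative log2 fold change (knockout over wild type). It was negative for 32 of 39 collagens (82.1%), against 52.0% of all genes, with a median of -0.11 over the collagens and -0.0068 over all genes tested. Between single libraries of the same genotype, the median log2 level of the collagens had an SD of 0.129. That is a spread of libraries, not the error of a difference between genotypes, and the shift of the median was not tested. The single values lay between -0.64 for Col25a1 and 0.73 for Col6a4, and both genes were near 1 CPM. This lean rested largely on library KO4, the lowest of the 7 libraries for 18 of the 39 collagens. Without KO4, 23 of 40 collagens (57.5%) had a negative log2 fold change, against 52.3% of all genes, and the median was -0.041. Without KO5 the median was -0.26, and without both KO5 and WT6 it was -0.16, with 28 of 38 negative (73.7%). Intervals bound how large a difference these libraries leave room for: the 95% interval lay within a 1.5-fold difference in either direction for 22 collagens, and within a 2-fold difference for 32.

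**Figure D1:**
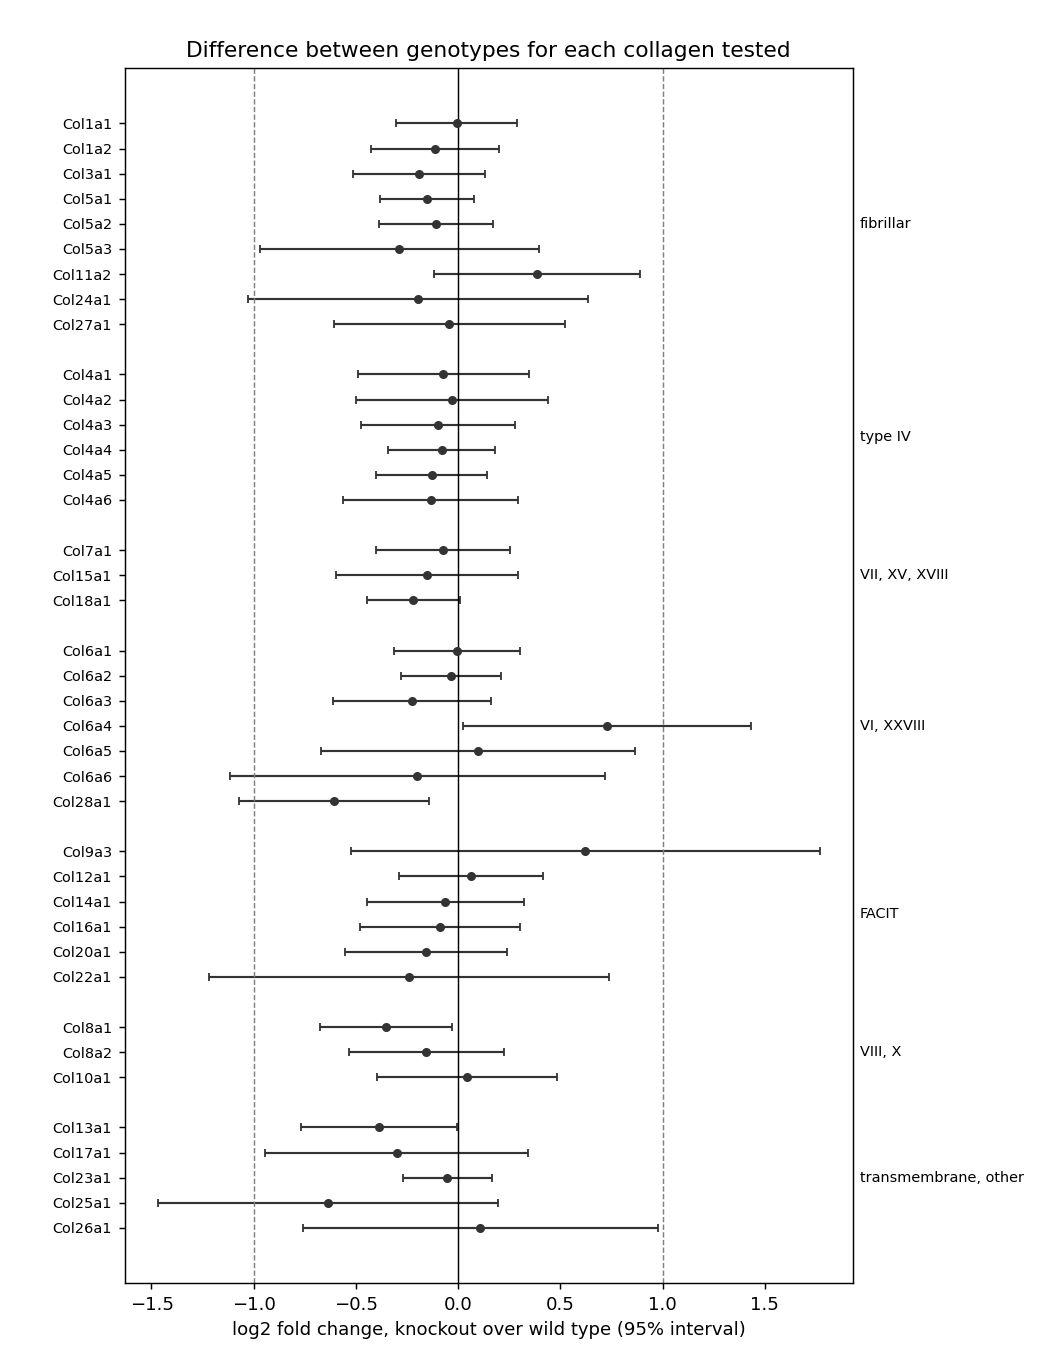
Log2 fold change (knockout over wild type) of the 39 collagens tested, with the 95% interval from edgeR's quasi-likelihood fit (3 knockout and 4 wild type libraries), grouped by structural class. Of the points, 32 lie below 0, the intervals of 4 genes exclude 0 before adjustment, and none passed the adjusted test.

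Collagen transcripts held 0.812%, 0.742% and 0.729% of all counts in the knockout libraries, against 0.752%, 0.769%, 0.905% and 0.772% in the wild type libraries. The means were 0.761 ± 0.0443% in knockout and 0.800 ± 0.0708% in wild type lungs (SD, n = 3 and 4). The genotypes overlapped, and the highest share was that of WT4. Counting error alone is small beside this, with a 95% Wilson interval of 0.807% to 0.816% in KO3 and 0.900% to 0.910% in WT4, and reads without molecular identifiers are not independent molecules. Type IV chains held 53.6 ± 6.45% of collagen counts in knockout and 52.9 ± 4.71% in wild type lungs, so that basement membrane chains made up more of the collagen counts than any other class in both genotypes. Fibrillar collagens held 23.5 ± 4.64% in knockout and 24.3 ± 2.91% in wild type lungs, and the type VI group 14.3 ± 1.11% and 14.3 ± 1.12%. The other 4 classes together held the rest. Longer transcripts give more counts, so these shares are of reads, not of molecules.

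**Figure D2:**
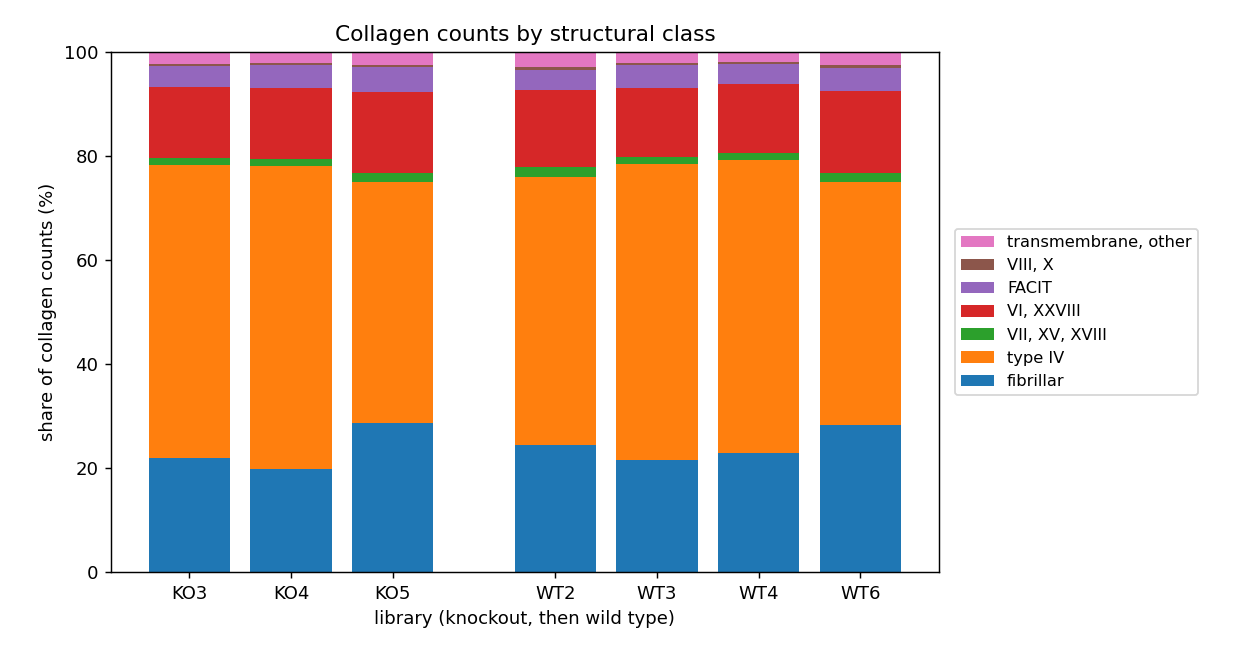
Share of collagen counts (%) taken by each of the 7 structural classes in each library, knockout libraries at the left. Type IV chains are the largest block in every library, from 46.2% in KO5 to 58.3% in KO4 among the knockouts and from 46.8% in WT6 to 56.9% in WT3 among the wild types, and the fibrillar block is largest in KO5 (28.7%) and WT6 (28.3%).

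Levels of different genes were compared per kilobase of merged exons. Col4a1 came first with 229.7 ± 45.7 CPM per kb in knockout and 242 ± 54.6 CPM per kb in wild type lungs (SD, n = 3 and 4), and Col4a2 next with 206 ± 49.7 CPM per kb in knockout and 211 ± 51.5 CPM per kb in wild type lungs. Their spreads overlapped, although Col4a1 stood above Col4a2 within each of the 7 libraries, by 1.08 to 1.25 times. Col6a1 had 109 ± 14.7 CPM per kb in knockout and 109 ± 16.3 CPM per kb in wild type lungs, Col3a1 74.9 ± 11.8 CPM per kb in knockout and 85.6 ± 11.8 CPM per kb in wild type lungs, and Col4a3 50.8 ± 11.4 CPM per kb in knockout and 54.4 ± 8.69 CPM per kb in wild type lungs. The next 5 in wild type lungs were Col1a2, Col6a2, Col1a1, Col6a3 and Col4a4, between 43.9 and 30.1 CPM per kb. The annotated exons of some genes include long or rarely used stretches. With the length of the transcript that carries the longest coding sequence, Col3a1 was in place 3 at 151 and Col1a2 in place 5 at 102 CPM per kb in wild type lungs. Col4a1 and Col4a2 kept the first places with both lengths.

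**Figure D3:**
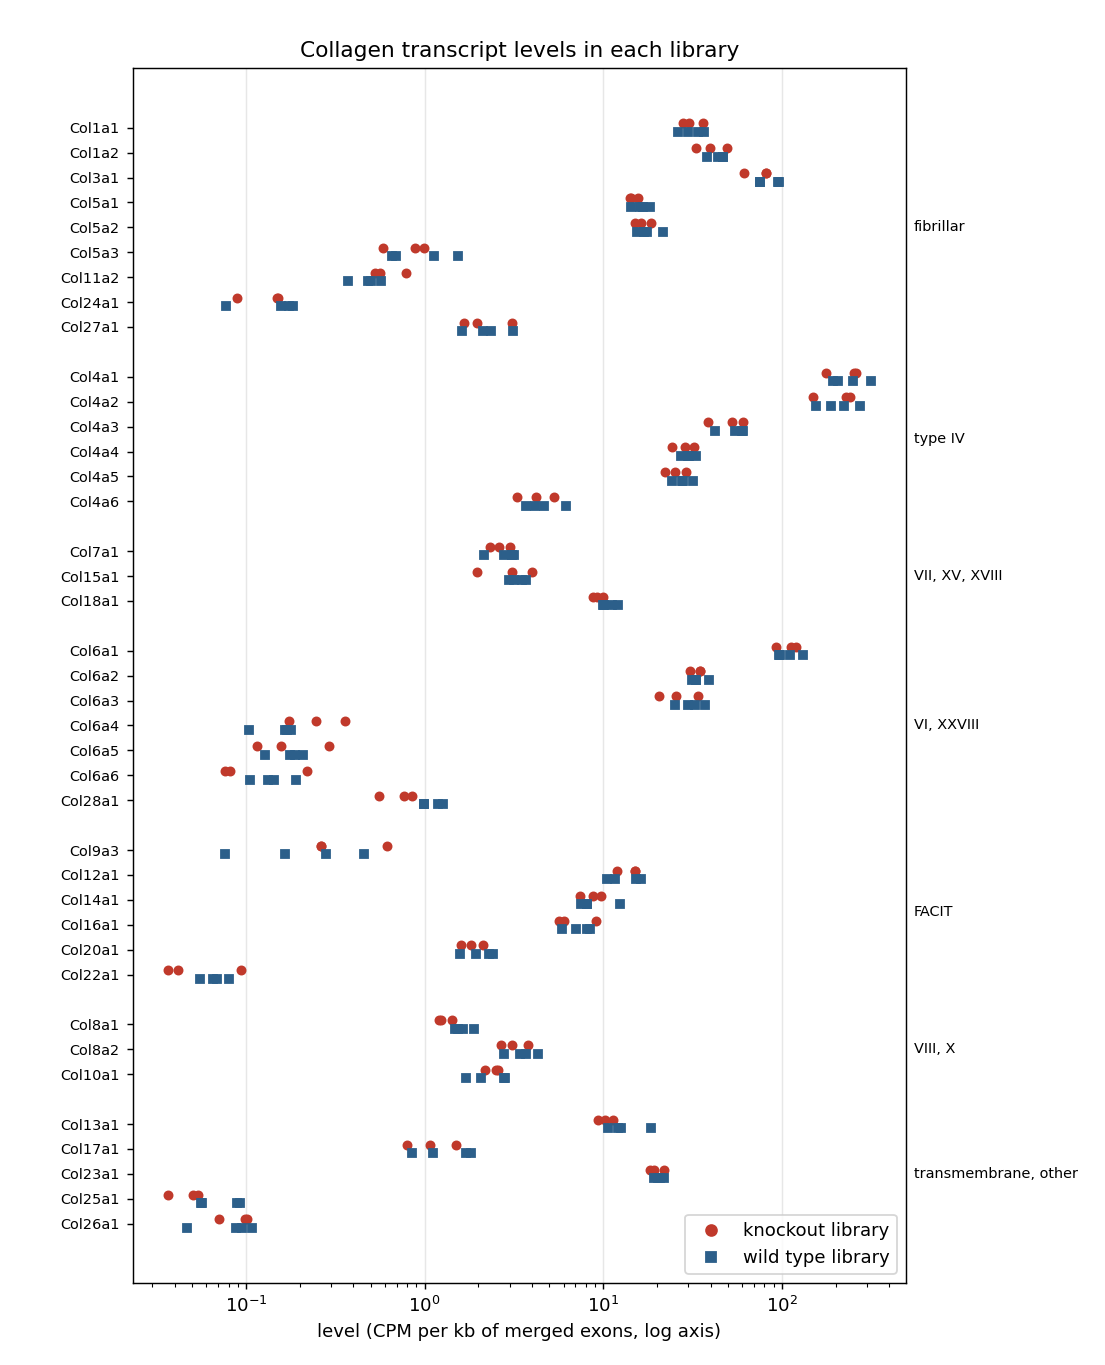
Level of the collagens in CPM per kb of merged exons on a log axis, with 1 point per library, knockout and wild type libraries side by side for each gene. Only the 39 genes tested are drawn, from means of 229.7 and 242 CPM per kb (knockout and wild type) for Col4a1 to 0.0575 and 0.0675 CPM per kb for Col22a1, and the points of the genotypes do not mix for Col28a1, Col8a1 and Col25a1 alone.

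Among the fibrillar collagens, both chains of type I collagen overlapped between genotypes, and Col1a1 was measured at nearly the same mean level. Col1a1 (chr11:94936224-94953042 in GRCm38), which encodes the major chain, had 198, 183 and 238 CPM in the knockout libraries, against 195, 171, 241 and 223 CPM in the wild type libraries. The groups overlapped throughout, and the highest and lowest libraries, WT4 and WT3, were both wild type. The log2 fold change was -0.0080 ± 0.14 (SE), with a 95% interval from 0.809-fold to 1.22-fold. Col1a2 (chr6:4504814-4541544), which encodes the second chain of the same protein, had 489.7, 412 and 611 CPM in the knockout libraries, against 546, 471, 579 and 586 CPM in the wild type libraries. Its highest and lowest libraries, KO5 and KO4, were both knockouts, and the log2 fold change was -0.11 ± 0.14 (95% interval -0.43 to 0.20).

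Col3a1 (chr1:45311538-45349706), the single gene of type III collagen, which forms the fine reticular fibres of vessels and airways, had 802, 602 and 803 CPM in the knockout libraries, against 741, 741, 951 and 929.7 CPM in the wild type libraries. KO4 was the lowest library, while KO3 and KO5 lay between the wild type libraries. Its log2 fold change was -0.19 ± 0.15 (95% interval -0.51 to 0.13, unadjusted p = 0.216 in edgeR), and -0.26 to -0.068 when 1 library was left out. Col5a1, a chain of the type V collagen on which type I fibrils nucleate, had 134, 122 and 119.5 CPM in the knockout libraries, against 143, 122, 155 and 137 CPM in the wild type libraries. The knockout values lay in the lower part of the wild type range or under it, and the log2 fold change was -0.15 ± 0.11 (unadjusted p = 0.171). Its partner Col5a2 had a log2 fold change of -0.11 ± 0.13, and Col5a3, a less abundant type V chain, one of -0.29 ± 0.31.

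The remaining fibrillar collagens are minor in lung. Col11a2, a chain of type XI collagen best known from cartilage, had 3.65, 3.88 and 5.43 CPM in the knockout libraries, against 3.31, 2.55, 3.92 and 3.45 CPM in the wild type libraries. KO5 was its highest library and the groups overlapped, with a log2 fold change of 0.38 ± 0.23 (unadjusted p = 0.121). Of the 9 fibrillar collagens tested it was the 1 with a positive value. Col24a1 and Col27a1, less abundant fibrillar collagens, had log2 fold changes of -0.20 ± 0.38 and -0.043 ± 0.25, and Col24a1 was near 1 CPM in both genotypes.

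The type IV collagens, the network chains of basement membranes, all had intervals within 1.5-fold, and all 6 log2 fold changes lay between -0.13 and -0.031. The genes stand in 3 head-to-head pairs, each pair reading outward from a shared start region. Col4a1 (minus strand) and Col4a2 (plus strand) are on chromosome 8, where the annotated 5′ ends overlap by 22 bases. Col4a4 (minus) and Col4a3 (plus) are on chromosome 1 with starts 72 bp apart, and Col4a6 (minus) and Col4a5 (plus) on chromosome X with starts 1309 bp apart. The promoter windows of RefSeq (GRCm38.p6, 250 bases before to 50 after the start) are shown for the closest and the widest pair, since the members of each pair are compared across the libraries. The windows of Col4a1 (chr8:11312777-11313076, minus strand) and Col4a2 (chr8:11312555-11312854, plus strand) share the 78 bases chr8:11312777-11312854. Those of Col4a6 (chrX:141474027-141474326, minus strand) and Col4a5 (chrX:141475169-141475468, plus strand) are 842 bases apart. All are given 5′ to 3′ on the strand of their gene, and capitals mark CCAAT and GGGCGG, or ATTGG and CCGCCC where the match is on the other strand.
Col4a1: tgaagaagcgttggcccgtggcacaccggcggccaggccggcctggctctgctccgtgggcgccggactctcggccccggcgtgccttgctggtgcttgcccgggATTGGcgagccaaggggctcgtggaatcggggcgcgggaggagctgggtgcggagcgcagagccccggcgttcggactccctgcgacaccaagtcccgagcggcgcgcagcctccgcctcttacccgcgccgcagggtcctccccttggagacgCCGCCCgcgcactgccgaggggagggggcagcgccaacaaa
Col4a2: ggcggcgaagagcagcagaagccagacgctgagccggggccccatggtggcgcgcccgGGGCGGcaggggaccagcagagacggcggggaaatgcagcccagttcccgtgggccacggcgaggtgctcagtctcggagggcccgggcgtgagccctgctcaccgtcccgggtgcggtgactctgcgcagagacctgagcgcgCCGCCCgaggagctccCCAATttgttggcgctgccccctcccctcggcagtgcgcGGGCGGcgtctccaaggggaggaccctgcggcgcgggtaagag
Col4a6: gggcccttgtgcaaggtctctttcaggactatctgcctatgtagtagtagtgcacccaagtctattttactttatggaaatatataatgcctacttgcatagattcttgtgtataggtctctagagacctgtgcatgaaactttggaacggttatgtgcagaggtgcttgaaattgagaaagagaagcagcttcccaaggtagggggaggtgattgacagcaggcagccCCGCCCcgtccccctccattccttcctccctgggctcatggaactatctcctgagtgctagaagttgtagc
Col4a5: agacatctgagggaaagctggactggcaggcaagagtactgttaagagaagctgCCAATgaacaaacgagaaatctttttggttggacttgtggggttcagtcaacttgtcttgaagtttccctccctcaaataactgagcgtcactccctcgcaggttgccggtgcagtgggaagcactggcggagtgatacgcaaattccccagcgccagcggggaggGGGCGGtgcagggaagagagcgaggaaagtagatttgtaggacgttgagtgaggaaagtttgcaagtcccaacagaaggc

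The Col4a1 and Col4a2 windows have a GC content of 74.0% and 73.7%, and the Col4a6 and Col4a5 windows 48.3% and 52.7%. The shared bases hold 1 complete match, chr8:11312812-11312817, which reads CCGCCC in the window of Col4a1 and GGGCGG in that of Col4a2. The CCAAT of Col4a2 (chr8:11312773-11312777) ends on the first shared base, and that of Col4a1 lies outside them. None of the 4 windows holds TATAAA, and no match overlaps another. RefSeq windows were at hand for 34 of the 43 collagens (36 windows). On either strand, CCAAT was found in 12 of the 36, GGGCGG in 23 and TATAAA in 5. Of all 32851 windows of the same length, 37.4% hold CCAAT, 35.7% GGGCGG and 13.6% TATAAA. These are letter matches in a window, not binding sites.

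Col4a1, a chain of the basement membranes found in nearly all tissues, had 1939, 1883 and 1322 CPM in the knockout libraries, against 1544, 1862, 2355 and 1453 CPM in the wild type libraries. Col4a2, the other chain of that network, had 1596, 1514 and 989.5 CPM in the knockout libraries, against 1248, 1484, 1824 and 1028 CPM in the wild type libraries. Both genes were lowest in KO5 and next lowest in WT6, and highest in WT4. The log2 fold changes were -0.073 ± 0.19 for Col4a1 and -0.031 ± 0.21 for Col4a2, with the genotypes overlapping. Without KO5 and WT6 the value of Col4a2 was 0.037, so its sign depends on that pair.

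Col4a3 and Col4a4 encode chains of the specialised network in alveolar and glomerular basement membranes, and are known as genes of Alport syndrome in people. Col4a3 had 608, 527 and 384 CPM in the knockout libraries, against 544, 608, 597 and 419 CPM in the wild type libraries. Col4a4 had 344, 303 and 258 CPM in the knockout libraries, against 316, 349, 319 and 291 CPM in the wild type libraries. Here too KO5 and WT6 were the lowest libraries, and the spread between libraries of one genotype exceeded the difference between genotypes. The log2 fold changes were -0.099 ± 0.17 and -0.080 ± 0.12. Of the exon bases of Col4a3, 5.65% are shared with the opposite-strand transcript C430014B12Rik, and with no strand setting given for the counting its counts are uncertain to that extent.

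Col4a5, on the X chromosome, completes that network and had 169.7, 149 and 196 CPM in the knockout libraries, against 164, 185, 189 and 213 CPM in the wild type libraries. It differed from the 4 autosomal chains in its order of libraries, with WT6 highest and KO4 lowest. The log2 fold change was -0.13 ± 0.12 (unadjusted p = 0.316). Col4a6, which joins Col4a5 in the basement membranes of smooth muscle, ranged from 26.3 to 42.3 CPM in knockout and from 29.6 to 49.3 CPM in wild type libraries, also with WT6 highest.

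**Figure D4:**
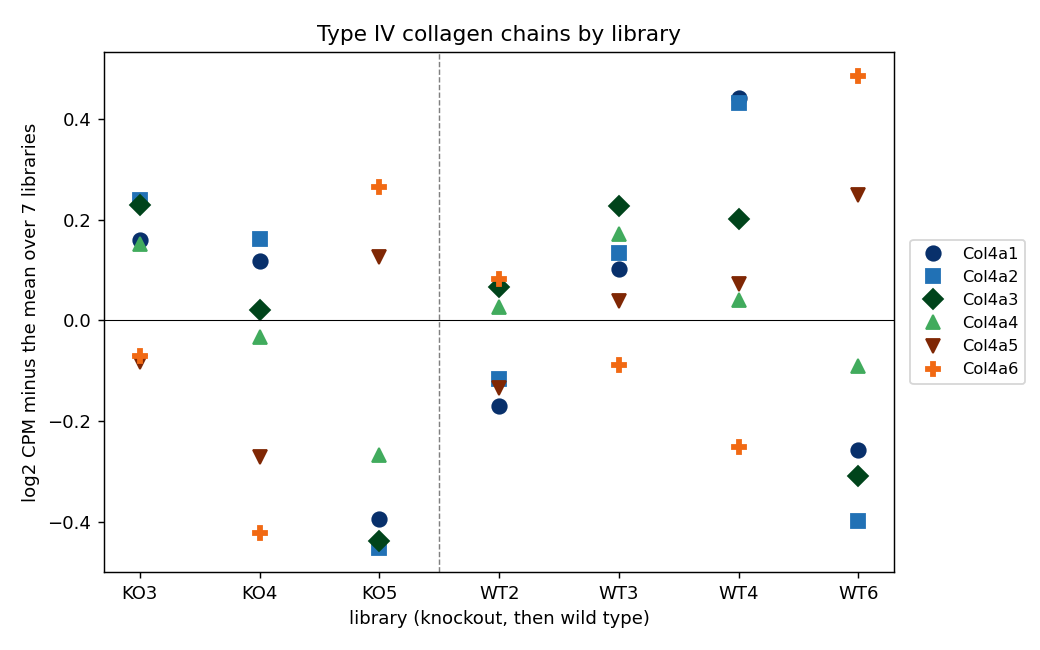
Level of the 6 type IV collagens in each library as log2 CPM minus the mean of the gene over the 7 libraries, with 1 symbol per gene and knockout libraries left of the dashed line. Col4a1 to Col4a4 are at their lowest in KO5 and WT6, while Col4a5 and Col4a6 are at their highest there within each genotype.

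Of the 3 head-to-head pairs, only Col4a1 with Col4a2 had a ratio clearly steadier than the other pairings of type IV genes. Over the 15 pairings of the 6 genes, the SD of the log2 ratio over the 7 libraries was smallest for that pair (0.076). Col4a3 with Col4a4 came next (0.139), hardly apart from Col4a3 with Col4a2 (0.143), which are not a head-to-head pair. Col4a5 with Col4a6 came in place 5 (0.21), also behind Col4a3 with Col4a1 (0.16). The widest SD was that of Col4a2 with Col4a6 (0.62). This is a description over 7 libraries that share depth and tissue makeup, and the 22 exon bases shared by Col4a1 and Col4a2 are under 1% of either gene.

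The type VI chains, which assemble into beaded filaments, did not share 1 order of libraries. Col6a1 had 528, 495 and 404 CPM in the knockout libraries, against 423, 485, 577 and 427 CPM in the wild type libraries. Col6a2, the chain encoded next to it, had 292, 289 and 254 CPM in the knockout libraries, against 277, 262, 327 and 274 CPM in the wild type libraries. For both, KO5 was the lowest library and WT4 the highest, and the log2 fold changes were -0.0062 ± 0.14 and -0.035 ± 0.11. Col6a3, the longest chain of the common filament, had 305, 246 and 406 CPM in the knockout libraries, against 391.7, 302, 355 and 445 CPM in the wild type libraries. Its order was different, with KO5 the highest knockout library and WT6 the highest of all. The log2 fold change of Col6a3 was -0.23 ± 0.18 (unadjusted p = 0.223), and -0.43 to -0.072 when 1 library was left out.

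Col6a4, Col6a5 and Col6a6 are related chains that can take the place of Col6a3 in the filament, and all were near 1 to 3 CPM. Col6a4 had 1.49, 2.10 and 3.04 CPM in the knockout libraries, against 1.45, 1.53, 0.888 and 1.41 CPM in the wild type libraries, from 22, 33 and 42 counts in the knockout libraries, against 24, 24, 12 and 20 counts in the wild type libraries. KO4 and KO5 were above every wild type library, while KO3 was within their range. For this gene the log2 fold change was 0.73 ± 0.32 (95% interval 0.026 to 1.43, unadjusted p = 0.0433, edgeR adjusted p = 0.9998), the largest positive value among the collagens. Col6a5 (0.097 ± 0.35) and Col6a6 (-0.20 ± 0.42) were also highest in KO5. How reads were assigned between these similar genes is not known, so their counts are uncertain.

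Col28a1 (chr6:7997808-8192617), a collagen with the same kind of von Willebrand A domains as type VI and described in mice around peripheral nerve, had the smallest p of all collagens. It had 3.78, 2.74 and 4.20 CPM in the knockout libraries, against 5.84, 4.85, 6.22 and 4.85 CPM in the wild type libraries. All 3 knockout libraries lay under all 4 wild type libraries, with 3.57 ± 0.754 CPM in knockout and 5.44 ± 0.697 CPM in wild type lungs (SD, n = 3 and 4). The log2 fold change was -0.61 ± 0.21 (95% interval -1.07 to -0.14, unadjusted p = 0.0148, edgeR adjusted p = 0.9998). It rests on 56, 43 and 58 counts in the knockout libraries, against 97, 76, 84 and 69 counts in the wild type libraries.

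Col18a1, a basement membrane collagen whose C-terminal fragment is endostatin, had 64.8, 61.7 and 70.5 CPM in the knockout libraries, against 84.7, 70.4, 71.3 and 79.2 CPM in the wild type libraries. KO5, the highest knockout library, was just above WT3, and the other knockout libraries were under every wild type library. In edgeR's fit the log2 fold change was -0.22 ± 0.10 (unadjusted p = 0.0579). Col15a1, the related multiplexin, had a log2 fold change of -0.15 ± 0.20, and Col7a1, the anchoring fibril collagen, -0.074 ± 0.15, both with overlapping groups.

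The FACIT collagens sit on the surface of fibrils. Of the 8 in the table, 6 were tested, with log2 fold changes from -0.24 for Col22a1 to 0.62 for Col9a3. Col9a3, a chain of the type IX collagen of cartilage, had 1.014, 1.02 and 2.39 CPM in the knockout libraries, against 1.08, 0.638, 0.296 and 1.76 CPM in the wild type libraries. KO5 and WT6 were the highest libraries, and the log2 fold change of 0.62 ± 0.52 (unadjusted p = 0.257) rests on 4 to 33 counts a library and was 0.11 to 1.08 when 1 library was left out. Of its exon bases, 6.07% are shared with Tcfl5 on the opposite strand. Col12a1 (0.062 ± 0.16), Col14a1 (-0.062 ± 0.17) and Col16a1 (-0.091 ± 0.18) were the abundant members and differed between genotypes by less than the spread between libraries, and Col20a1 had -0.16 ± 0.18. Col14a1 marks a population of matrix fibroblasts in mouse lung and was highest in WT6 (87.3 CPM, against 52.5 to 57.1 CPM in WT2, WT3 and WT4). KO5 came next at 68.6 CPM, against 61.7 CPM in KO3 and 52.1 CPM in KO4.

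Of the short-chain network collagens, Col8a1 (chr16:57624258-57754737), which is known from vessel walls and the cornea, had 9.67, 11.1 and 9.41 CPM in the knockout libraries, against 14.8, 11.6, 12.1 and 12.9 CPM in the wild type libraries. The genotypes did not overlap, although KO4 and WT3 lay close together. The means were 10.1 ± 0.932 CPM in knockout and 12.9 ± 1.42 CPM in wild type lungs (SD, n = 3 and 4). The log2 fold change was -0.35 ± 0.15 (unadjusted p = 0.0344, edgeR adjusted p = 0.9998). Its partner Col8a2 (-0.16 ± 0.17) and the hypertrophic cartilage collagen Col10a1 (0.043 ± 0.20) overlapped between genotypes.

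The transmembrane collagens stay in the membrane of the cell that makes them. Col13a1 (chr10:61838236-61979108), which marks a second population of matrix fibroblasts in mouse lung, had 52.4, 43.2 and 46.9 CPM in the knockout libraries, against 85.2, 48.8, 58.2 and 56.0 CPM in the wild type libraries. WT2 was far above the other libraries, and KO3 lay above WT3. Knockout over wild type, the log2 fold change was -0.39 ± 0.17 (95% interval -0.77 to -0.0056, unadjusted p = 0.0472), and without WT2 it was -0.19. Col17a1, the hemidesmosome collagen of basal epithelial cells, had 6.42, 4.77 and 8.98 CPM in the knockout libraries, against 10.9, 5.11, 6.73 and 10.3 CPM in the wild type libraries, with WT2 and WT6 highest. Its log2 fold change was -0.30 ± 0.29, and -0.56 to -0.10 when 1 library was left out.

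Col25a1, a transmembrane collagen best known from neurons, had 0.473, 0.700 and 0.652 CPM in the knockout libraries, against 0.723, 1.15, 0.740 and 1.196 CPM in the wild type libraries. The groups did not overlap, but the values come from 7 to 11 counts in the knockout and 10 to 18 counts in the wild type libraries, whose count ranges overlap. Its log2 fold change was -0.64 ± 0.38 (unadjusted p = 0.12). Col23a1, another transmembrane collagen, was the most abundant of this class with 114 ± 10.9 CPM in knockout and 118 ± 5.77 CPM in wild type lungs (SD, n = 3 and 4), and its log2 fold change was -0.052 ± 0.099. Col26a1, which belongs to none of the main structural classes, had 0.11 ± 0.40 at under 1 CPM.

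**Figure D5:**
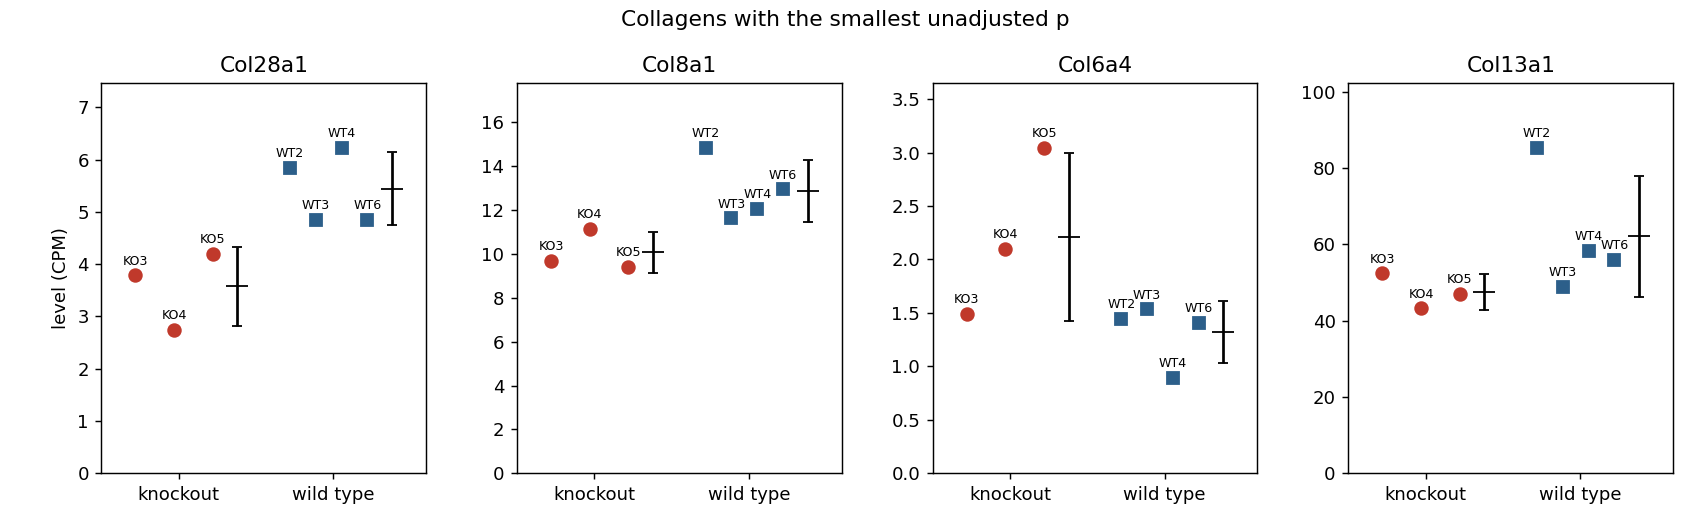
Level (CPM) of the 4 collagens with the smallest unadjusted p in each library, knockout at the left, with the mean and SD of each genotype beside the points. The knockout libraries lie under every wild type library for Col28a1 and Col8a1 and overlap them for Col6a4 and Col13a1, where KO5 and WT2 are the highest libraries.

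The 4 collagens that did not pass the filter were at or near the limit of detection. Col2a1, the main collagen of cartilage, had 1, 1 and 2 counts in the knockout libraries, against 2, 2, 0 and 10 counts in the wild type libraries. Its highest count was in WT6, and the 0 in WT4 allows up to 0.222 CPM (3 counts). Col11a1 had 3 to 10 counts in knockout and 2 to 17 counts in wild type libraries, and Col19a1 had 1 to 5 and 2 to 14 counts, again with WT6 highest. Col9a2 had 0 to 7 and 1 to 3 counts, and its 0 in KO3 allows up to 0.203 CPM. The cartilage markers Matn3, Cnmd, Comp and Snorc were also low, with 1 to 9 counts in the knockout libraries and 0 to 14 counts in the wild type libraries. Acan, Matn1 and Ucma, of the same list, were not matched by symbol to an entry, so no values are given for them. The 8 genes of the list that were matched summed to 54.2 to 65.3 CPM in knockout and 55.4 to 67.1 CPM in wild type libraries, led by Matn4 (24.6 to 41.7 CPM over the 7 libraries) and Chad (11.9 to 17.4 CPM). At these counts no difference between genotypes was detectable.

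Libraries KO5 and WT6 stood together at 1 end for some collagens and at neither end for 24 of 39. They were the 2 lowest of the 7 libraries for 4 collagens (10.3%), Col4a1, Col4a2, Col4a3 and Col4a4, against 16.9% of all genes. They were the 2 highest for 11 collagens (28.2%; Col1a2, Col4a5, Col4a6, Col6a3, Col6a5, Col6a6, Col8a2, Col9a3, Col14a1, Col15a1 and Col16a1), against 16.7% of all genes. Summed marker levels in these libraries are given beside these counts. The 6 endothelial markers, led by Cdh5 and Pecam1, summed to 2256 CPM in KO5 against 2823 and 2974 CPM in the other knockouts, and to 2531 CPM in WT6 against 2871 to 3198 CPM in the other wild types. The 8 lung epithelial markers summed to 19215 CPM in KO5 against 29030 and 31518 CPM, and to 22673 CPM in WT6 against 26835 to 31604 CPM. In both lists the genes differed. Cdh5, Pecam1, Tek, Car4, Scgb1a1, Sftpc, Ager and Foxj1 were lowest in KO5 and WT6. Hopx instead had 172 CPM in KO5 and 192 CPM in WT6, against 115 to 153 CPM in the other 5 libraries. Cyp2f2 and Cldn5 were highest in WT6, at 977 and 247 CPM. The 8 mesothelial markers summed to 314 CPM in KO5 against 262 and 288 CPM in the other knockouts, and to 327 CPM in WT6 against 203 to 298 CPM in the other wild types. Within that list the genes differed, with Msln at 82.1 CPM in KO5 and 55.3 CPM in WT6 against 12.3 to 29.2 CPM in the other 5 libraries. Krt19, the most abundant of the list in every library, was at 88.6 and 94.0 CPM against 88.8 to 177 CPM, so the sums hide the differences between these genes. The part of these markers in the collagen values was not tested.

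Between genotypes, the marker lists of collagen-making and neighbouring cells are given beside the shares over all genes, of which 52.0% had a negative log2 fold change and 1.05% were lower at an unadjusted p under 0.05. The mesothelial list had 5 of 8 negative, with sums, led by Krt19, of 262 to 314 CPM in knockout and 203 to 327 CPM in wild type libraries. The cartilage list had 2 of 4 tested negative. The endothelial list had 5 of 6 negative and the lung epithelial list 5 of 8. The 10 lung fibroblast markers, led by Inmt and Npnt, summed to 2238 to 2575 CPM in knockout and 2557 to 3175 CPM in wild type libraries, with 7 of 10 log2 fold changes negative, and Inmt alone had 683, 637 and 701 CPM in the knockout libraries, against 1290.4, 913, 743 and 863 CPM in the wild type libraries. The 7 myofibroblast and smooth muscle markers summed to 705 to 955 CPM in knockout and 775 to 1025 CPM in wild type libraries, with 5 of 7 negative. The 7 heart muscle markers, led by Myh6, summed to 368 to 451 CPM in knockout and 381 to 828.7 CPM in wild type libraries, all 7 with negative log2 fold changes and 5 lower at an unadjusted p under 0.05. The adipocyte list, with 5 of 5 tested negative, reached 157 CPM in WT6 against 27.9 to 56.9 CPM in the other 6 libraries. No gene of these lists passed the test, and their part in the collagen values was not tested.

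A ratio between chains cancels library scaling. The 10 ratios per kb taken were mostly of chains that meet in 1 protein or network, while that of Col4a1 to Col4a3 is between networks. They were compared with a two-sided exact permutation test over the libraries (35 arrangements, smallest p possible 0.0286), adjusted over the 10. The lowest adjusted p was 0.857. A single ratio could not have passed, since even the smallest p possible gives 0.286 after adjustment, and 6 ratios would have had to reach it together. The ratio of Col1a1 to Col1a2 was 0.767, 0.841 and 0.738 in the knockout libraries, against 0.677, 0.688, 0.788 and 0.721 in the wild type libraries (means 0.782 ± 0.0533 and 0.719 ± 0.0498, SD, n = 3 and 4, exact permutation p = 0.171). The ratio of Col3a1 to Col1a1 averaged 2.38 ± 0.278 in knockout and 2.71 ± 0.157 in wild type lungs (exact permutation p = 0.143). KO3, at 2.70, was within the wild type range of 2.54 to 2.89, and KO4 and KO5 were under it. The ratio of Col4a1 to Col4a2 was 1.12 ± 0.0559 in knockout and 1.15 ± 0.0707 in wild type lungs, and that of Col6a1 to Col6a2 was 3.24 ± 0.206 and 3.18 ± 0.299. The size of each ratio depends on the length used, here that of merged exons, while its comparison between genotypes does not. With the coding transcript length, wild type lungs had 117 and 72.2 CPM per kb for Col6a1 and Col6a2. For Col1a1 and Col1a2 the values were 35.0 and 102 CPM per kb. The ratio of Col6a3 to Col6a1 was 0.367 in KO5 and 0.381 in WT6, against 0.182 and 0.212 in the other knockouts and 0.225 to 0.339 in the other wild types.

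The genes that make, process and bind collagen were read from 7 lists, of which 80 of 81 genes were tested. None passed the test, and 56 of 80 (70%) had a negative log2 fold change, against 52.0% of all genes. The median was -0.053, against -0.0068 over all genes, and 4 (5%) had an unadjusted p under 0.05, against 2.87% of all genes. Of the 18 genes for chain modification and folding, 9 were negative (median -0.017). P4ha3, a prolyl 4-hydroxylase subunit that stabilises the triple helix, had 2.64, 3.12 and 2.61 CPM in the knockout libraries, against 1.81, 1.79, 1.998 and 1.62 CPM in the wild type libraries. The groups did not overlap, with a log2 fold change of 0.63 ± 0.23 (unadjusted p = 0.0193). P3h3, of the prolyl 3-hydroxylase family, had a log2 fold change of -0.26 ± 0.11 (unadjusted p = 0.0445).

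Of the 7 procollagen processing genes tested, 5 were negative (median -0.068). Pcolce2, an enhancer of the protease that trims the C-propeptide, had 167, 138 and 156 CPM in the knockout libraries, against 198, 172, 184 and 176 CPM in the wild type libraries, without overlap (log2 fold change -0.25 ± 0.10, unadjusted p = 0.0338), while Adamts3, which trims the N-propeptide, had 0.21 ± 0.20. The 7 cross-linking genes had a median of -0.060, and those with the smallest p were Loxl1 (-0.19 ± 0.15) and Loxl3 (-0.068 ± 0.14), lysyl oxidase family members. The 95% interval lay within 2-fold for 6 of the 7. The exception was Lox (0.335-fold to 3.51-fold), which ranged from 128 to 355 CPM in knockout and 96.8 to 397 CPM in wild type libraries. The 14 turnover genes were evenly split (median -0.0068), led by the collagen uptake receptor Mrc2 (-0.29 ± 0.21) and the neutrophil collagenase Mmp8 (0.35 ± 0.27). Apart from Pcolce2, the groups of these genes overlapped.

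Of the 9 collagen receptors, 8 were negative (median -0.16). Ddr2, a receptor tyrosine kinase for fibrillar collagen, had 199.9, 179 and 196 CPM in the knockout libraries, against 225, 218, 214 and 213 CPM in the wild type libraries, without overlap (log2 fold change -0.18 ± 0.093, unadjusted p = 0.0739), and Itga2, an integrin subunit that binds collagen, had -0.20 ± 0.11. The 10 fibril regulators had a median of -0.043. Thbs1, a matrix glycoprotein that binds collagen, had 327, 319.6 and 439 CPM in the knockout libraries, against 263, 506, 829.1 and 704 CPM in the wild type libraries, with a wide spread among the wild types and a log2 fold change of -0.67 ± 0.35, and Tnxb had -0.24 ± 0.20. Of the 15 basement membrane partners of type IV collagen, 13 were negative (median -0.053). Lama3, a laminin chain of epithelial basement membranes, had 306, 277 and 252 CPM in the knockout libraries, against 350.1, 357, 333 and 302 CPM in the wild type libraries. KO3 was its highest knockout library, just above WT6, and the log2 fold change was -0.27 ± 0.11 (unadjusted p = 0.0304), while Lama2 had -0.16 ± 0.096.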

How the data were processed

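The deposited values are raw whole-number counts per gene symbol for 7 lung libraries. STAR, DESeq2 and the build mm10 are named, without versions, in the submitters' processing notes; the way of counting, the annotation and the strand setting were not given in the sources used here. Counts of overlapping or similar genes are therefore uncertain. Genes were kept with edgeR 4.0.16's filter by group in R 4.3.3 (19832 kept), scaled by TMM and tested with the robust quasi-likelihood test, genotype as the only term, two-sided, with Benjamini-Hochberg adjustment over all kept genes. CPM use the TMM-scaled totals. Intervals (95%) come from the SE and the degrees of freedom of the test. Lengths, positions and exon overlaps come from GENCODE M21 (GRCm38). No libraries were alike within sampling noise (chi-square per degree of freedom 4.30 or more). The test was tried on simulated counts.

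Values of every library are given for Col1a1, Col1a2, Col2a1, Col3a1, Col4a1 to Col4a4, Col6a1 to Col6a3 and Col17a1 and for the 12 collagens with the smallest p. Of each pathway list the 2 genes with the smallest p are named, and Lox for its wide interval. The members, lists and rules were chosen with earlier results of these data known. The chain ratios and the coding transcript lengths were added later. Alternatives were other scaling, filters, DESeq2 1.42.0, a replicate block and leaving out libraries.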

Additional observations from a re-analysis of the deposited data

Results flagged for a closer look

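Of 44 values checked in the 4 wild type libraries, 2 had a library far from the others, and chance flags about 1 in 20 such groups. Col14a1 stood at 87.3 CPM in WT6, against 52.5, 57.1 and 57.1 CPM in the other wild type libraries, and at 52.1 to 68.6 CPM in the knockout libraries. The collagen share of all counts was 0.905% in WT4, against 0.752%, 0.769% and 0.772% in the other wild type libraries, and 0.729% to 0.812% in the knockout libraries. The groups of 3 knockout libraries are too small for the check.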

How the results depend on the processing

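0 collagens were called under each of the 15 alternatives to the test, and the lowest adjusted p of a collagen was 0.331, for Col28a1 with the replicate block. Over the alternatives in which each was tested (10 for Col22a1, 15 for each of the others), 15 collagens had a negative and 3 a positive log2 fold change throughout, and 21 changed sign in at least 1. Collagens at an unadjusted p under 0.05 numbered 4 in the fit reported and 1 to 7 under the alternatives, the 7 with the replicate block. The median of the collagens was -0.26 to -0.041 when 1 library was left out. All genes called numbered 7 in the edgeR fit reported, 47 with DESeq2, 14 without WT6 and KO5, 29 with a term for that pair, and 3 to 41 when 1 library was left out. The cause was not tested.

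Replicate numbers 3 and 4 occur in both genotypes. Deviations correlated at 0.28 for KO3 with WT3 and 0.27 for KO4 with WT4, and as much for KO3 with WT4 (0.28) and KO4 with WT3 (0.28). These libraries also all correlated negatively with KO5 or WT6 of the other genotype (-0.47 to -0.39). The values therefore cannot tell whether the numbers pair libraries, and the labels do not say. With a block on the number, WT2, WT6 and KO5 have no counterpart in the other genotype. The genotype difference then rests on KO3 and KO4 against WT3 and WT4, so its calls do not speak for all 7 libraries. With the replicate block, all genes called numbered 140, turnover genes 1 (Mmp3, -0.58, edgeR adjusted p = 0.00382) and fibril regulators 1 (Thbs1, -1.004, edgeR adjusted p = 2.53e-16). That fit has nearly as many terms as libraries, so little spread is left to test against and its small p-values cannot be relied on. In the edgeR fit reported, Mmp3 and Thbs1 had unadjusted p of 0.696 and 0.0960. Signs turned with the block for Col12a1 (-0.065), Col14a1 (0.051), Col5a3 (0.11), Col6a5 (-0.42) and Col7a1 (0.022).

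Signs also turned with library totals alone for Col1a1 (0.012) and Col6a1 (0.0080). Without WT6 and KO5 they turned for Col14a1 (0.036), Col4a2 (0.037), Col6a1 (0.052), Col6a2 (0.012) and Col6a5 (-0.26), and with a term for the pair for Col4a2 (0.0079), Col6a1 (0.011) and Col6a5 (-0.011). Leaving out 1 library gave log2 fold changes of -0.080 to 0.14 for Col10a1, -0.040 to 0.17 for Col12a1, -0.15 to 0.13 for Col14a1, -0.40 to 0.080 for Col15a1, -0.33 to 0.033 for Col16a1, -0.12 to 0.071 for Col1a1, -0.27 to 0.011 for Col1a2, -0.40 to 0.016 for Col24a1, -0.094 to 0.26 for Col26a1, -0.34 to 0.14 for Col27a1, -0.17 to 0.088 for Col4a1, -0.16 to 0.16 for Col4a2, -0.25 to 0.071 for Col4a3, -0.19 to 0.026 for Col4a4, -0.32 to 0.028 for Col4a6, -0.090 to 0.10 for Col6a1, -0.073 to 0.036 for Col6a2, -0.35 to 0.36 for Col6a5, -0.85 to 0.064 for Col6a6 and -0.18 to 0.0097 for Col7a1. Where the sign held, the ranges were 0.19 to 0.49 for Col11a2, -0.49 to -0.19 for Col13a1, -0.56 to -0.10 for Col17a1, -0.27 to -0.17 for Col18a1, -0.27 to -0.068 for Col20a1, -0.76 to -0.0064 for Col22a1, -0.14 to -0.00070 for Col23a1, -0.76 to -0.49 for Col25a1, -0.73 to -0.45 for Col28a1, -0.26 to -0.068 for Col3a1, -0.23 to -0.038 for Col4a5, -0.21 to -0.099 for Col5a1, -0.19 to -0.0027 for Col5a2, -0.43 to -0.072 for Col6a3, 0.44 to 0.95 for Col6a4, -0.43 to -0.28 for Col8a1, -0.29 to -0.044 for Col8a2 and 0.11 to 1.08 for Col9a3. With totals that omit the 10 most abundant genes, collagens held 0.839% of counts in knockout and 0.881% in wild type lungs. With the coding transcript length, chosen after seeing the data, levels per kb moved as given in the report. Depth limits the collagens near or under 1 CPM, where single libraries held fewer than 20 counts.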
